A study of Mus musculus with 16 samples.

Results

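The comparison described here sets the change in gene expression produced by one cluster of miR-200 microRNAs, labelled Cluster 1, against the change produced by the other, labelled Cluster 2. It was chosen by sample title and covers 8 of the 16 arrays of the series, in 4 groups of 2 repeats called A and B. All groups are 4TO7 cells, which derive from a mouse mammary carcinoma and were grown with serum, infected with retroviral pMSCV vectors. Cells labelled Cluster 1 stably overexpressed the Cluster 1 microRNAs, and their control, labelled Puro vec control for Cluster 1, carried the pMSCV puro vector alone. Cells labelled Cluster 2 overexpressed the Cluster 2 microRNAs, and their control, labelled Hygro vec, carried the pMSCV hygro vector alone. Total RNA (175 ng) of each sample was labelled in 1 colour and hybridised against a common reference RNA from 11 mouse cell lines in the other colour.

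The sample was labelled with Cy5 in the Cluster 1 pair, whose 4 arrays lay on 1 slide, and with Cy3 in the Cluster 2 pair, whose A and B repeats lay on a slide each. Empty vector, dye and slide all differ between the pairs, so their part in a difference between the effects cannot be told apart from that of the cluster. Values below are therefore log2 changes within a pair, and levels of one pair are never set against levels of the other. The difference of effects is the Cluster 1 change minus the Cluster 2 change. The series calls the 2 repeats of a group biological replicates. The sources used here do not say whether they were separate infections, and p-values thus reflect spread between such repeats and may not cover independently made lines.

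MicroRNAs of the miR-200 family hold cells in an epithelial state. They pair through their seed with messenger RNAs of the repressors Zeb1 and Zeb2, which switch off E-cadherin (Cdh1) and other epithelial genes, and the repressors in turn switch off the microRNA genes. In mammary cancer cells the family is known for restoring cell-cell junctions and for lowering mesenchymal genes.

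The family is encoded at a locus on mouse chromosome 4 (miR-200b, miR-200a, miR-429) and a locus on chromosome 6 (miR-200c, miR-141). The sources used here do not say which locus each label stands for. The mature sequences are printed because they show what the loci share. They come from RefSeq (GRCm38.p6), with the seed, bases 2 to 8, in capitals.
mmu-miR-200b-3p: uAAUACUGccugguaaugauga
mmu-miR-200a-3p: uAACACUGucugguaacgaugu
mmu-miR-429-3p: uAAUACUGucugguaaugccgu
mmu-miR-200c-3p: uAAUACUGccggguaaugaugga
mmu-miR-141-3p: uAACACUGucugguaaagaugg
Each locus holds the seed AAUACUG and the seed AACACUG, which differ by 1 base. Between the loci, miR-200b and miR-200c differ at 2 of their first 22 bases, miR-200a and miR-141 at 2, and miR-429 and miR-200c at 5, all outside the seed.

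Of 18900 genes that passed the filter on dim spots, 18835 could be tested for the difference. Repeats A and B of a group typically differed little: the median gap in log2 ratio ran from 0.0825 to 0.108 over the 8 groups of the series. The luminal keratins Krt8, Krt18 and Krt19 and the epithelial surface gene Epcam were well above background on all 8 arrays, while Elf5 and the milk protein gene Csn2 were on none. Markers of other types were also above background on all 8: 2 of 5 basal or myoepithelial, 4 of 7 fibroblast and 4 of 9 leukocyte markers. The same held for 1 of 3 adipocyte, 1 of 3 muscle and 0 of 4 endothelial markers. Detection alone thus does not set the cells apart as luminal. None of 9 leukocyte markers was called in either effect; their differences of effects ran from -0.20 to 1.05.

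Genes were called at an adjusted p under 0.05 from limma. Cluster 1 changed 1568 genes, 923 higher (4.89% of those tested) and 645 lower (3.42%). Cluster 2 changed 527 genes, 329 higher (1.75%) and 198 lower (1.05%). The effects of the clusters themselves differed in 505 genes (2.68%), with the Cluster 1 change above the Cluster 2 change in 327 (1.74%) and below it in 178 (0.945%), and 40 and 23 of these differed by at least 2-fold. A total of 221 genes changed the same way in both effects, 182 higher and 39 lower, which is 14.1% of the Cluster 1 calls and 41.9% of the Cluster 2 calls. Another 28 genes were called in opposite directions. Across 18835 genes, which are not independent replicates, the effects correlated at r = 0.182, and at r = 0.401 across the 1840 genes called in either.

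The counts moved with single arrays and with the normalisation. Leaving out 1 array lowered the difference calls to 195 without Cluster 1 repeat A, 211 without Hygro vec repeat B, 269 and 293 without Puro repeats A and B, and 317 without Cluster 2 repeat B. Cluster 1 calls numbered 678 and 989 without Cluster 1 repeats A and B, and 838 and 844 without Puro repeats A and B. Cluster 2 calls numbered 297 without Cluster 2 repeat B, 800 without Hygro repeat A and 235 without Hygro repeat B. Same-way calls numbered 147 and 133 without Cluster 2 repeats A and B, and 120 without Hygro repeat B. Centring each array on its median in place of loess shifted the median difference over all genes from 0.003 to -0.121 and turned the split of the difference calls to 158 above and 850 below. It also moved the Cluster 1 calls to 786 higher and 349 lower, the Cluster 2 calls to 2138 higher and 145 lower, and the same-way calls to 379 higher and 9 lower. With the spread of the arrays scaled to be equal, Cluster 2 calls split into 67 higher and 8 lower and same-way calls into 43 and 2, and with the sample channel alone into 153 and 56, and 98 and 8. Keeping the spots that the scanner software marked as outliers left 29 difference calls, and the genes below were called without those spots.

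A gene counted as cluster-specific only where the difference itself was called and 1 effect alone passed the threshold. That gave 210 genes specifically higher and 109 lower with Cluster 1, and 46 higher and 48 lower with Cluster 2. A further 994 genes were called in the Cluster 1 effect alone and 184 in the Cluster 2 effect alone without a call in the difference, so their specificity was not shown. Another 38 genes were called in the difference but in neither effect.

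**Figure D1:**
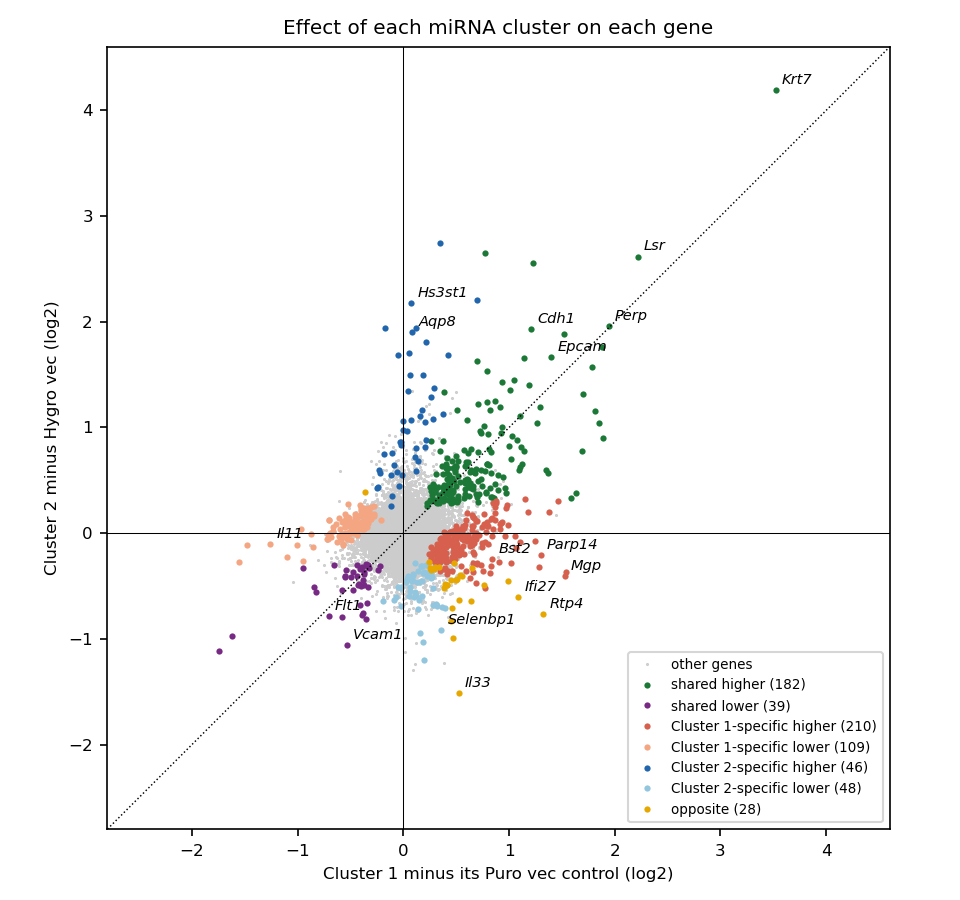
Each point is a gene, with the Cluster 1 change against its Puro control (x axis, log2) and the Cluster 2 change against Hygro vec (y axis, log2); colours mark the 7 classes and the dotted line is equality. Epithelial genes such as Krt7, Lsr, Perp and Cdh1 lie high in both effects, the 46 Cluster 2-specific higher genes lie above 0 on the y axis, and the 210 Cluster 1-specific higher genes lie to the right of 0 on the x axis.

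Epithelial genes led the changes that the clusters shared. Krt7, a simple-epithelium keratin, rose most in both. Its log2 ratio to the reference was -1.01 on both Puro arrays and 2.52 and 2.50 with Cluster 1, and -2.10 and -1.90 on the Hygro arrays and 2.17 and 2.21 with Cluster 2. Cluster arrays lay far above their controls in both pairs, with a rise of 3.52 (SE 0.10) and of 4.19 (SE 0.10). The difference of -0.67 was called (adjusted p = 0.031, limma), but not on leaving out any of 7 of the 8 arrays in turn (-0.69 to -0.57), and it turned to 1.53 with the spread of the arrays scaled.

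Lsr, which builds tricellular tight junctions, had log2 ratios of 0.69 and 0.81 on the Puro arrays and 2.90 and 3.02 with Cluster 1. In the Cluster 2 pair it had -0.17 and -0.43 in Hygro and 2.33 and 2.30 with the cluster. The rises were 2.22 and 2.62, and the difference of -0.40 (SE 0.17) was not called (adjusted p = 0.259, limma). Perp, a desmosome protein of the p53 response, went from -0.99 and -1.04 to 0.85 and 1.00 with Cluster 1. It went from -0.37 and -0.32 to 1.63 and 1.59 with Cluster 2. Its rises of 1.94 and 1.96 differed by -0.01 (SE 0.10), with no call. No array of a cluster overlapped its control in either gene. With the spread of the arrays scaled, the differences turned to 1.18 (Lsr) and 1.08 (Perp).

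Cdh1 rose by 1.21 (SE 0.13) with Cluster 1 and by 1.93 (SE 0.13) with Cluster 2. Its log2 ratios were -0.01 and 0.09 in Puro, 1.21 and 1.29 with Cluster 1, 1.01 and 0.94 in Hygro, and 3.06 and 2.76 with Cluster 2. The difference of -0.73 (SE 0.18) fell just outside the threshold (adjusted p = 0.0525, limma). It was called with the replicate block (adjusted p = 0.00915, limma), with the filter on all 8 arrays (0.0207), without Cluster 2 repeat B (-0.88, 0.0333) and against the Puro control of the CDH1 experiment (-0.74, 0.0422). It turned sign, without a call, with processed signals (0.54), with scaled spread (0.23) and in the deposited matrix (0.57), so its direction depended on the processing. Zeb2, the direct target that represses Cdh1, fell by 0.39 and by 0.77. Its log2 ratios were 0.34 and 0.50 in Puro, -0.004 and 0.06 with Cluster 1, 0.75 and 0.78 in Hygro, and -0.04 and 0.03 with Cluster 2. Its difference of 0.38 (adjusted p = 0.0771, limma) was not called. Over the alternative settings the Zeb2 difference ran from -0.067 to 0.536, and it was called in at least 1 of them. Zeb1 was called in neither effect, with changes of 0.26 and -0.33.

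Other shared rises of similar size were those of Epcam, an adhesion glycoprotein (1.40 and 1.67), Msln, the surface protein mesothelin (1.78 and 1.57), Grb7, an adaptor of ErbB receptors (1.88 and 1.76), Shtn1, a cytoskeletal linker (1.70 and 1.32), and Cgnl1, a junction plaque protein (1.29 and 1.19), with Cluster 1 given first. None of these differences was called, which does not show that the clusters act alike on these genes; the standard errors of the differences ran from 0.11 (Shtn1 and Cgnl1) to 0.24 (Epcam and Grb7). For Epcam the ratios were -2.05 and -2.48 in Puro and -0.88 and -0.85 with Cluster 1, against -3.31 on both Hygro arrays and -1.69 and -1.59 with Cluster 2. Against the other Puro control the differences of Shtn1 (1.26), Lsr (0.95), Perp (1.22) and Cgnl1 (-0.77) were called.

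**Figure D2:**
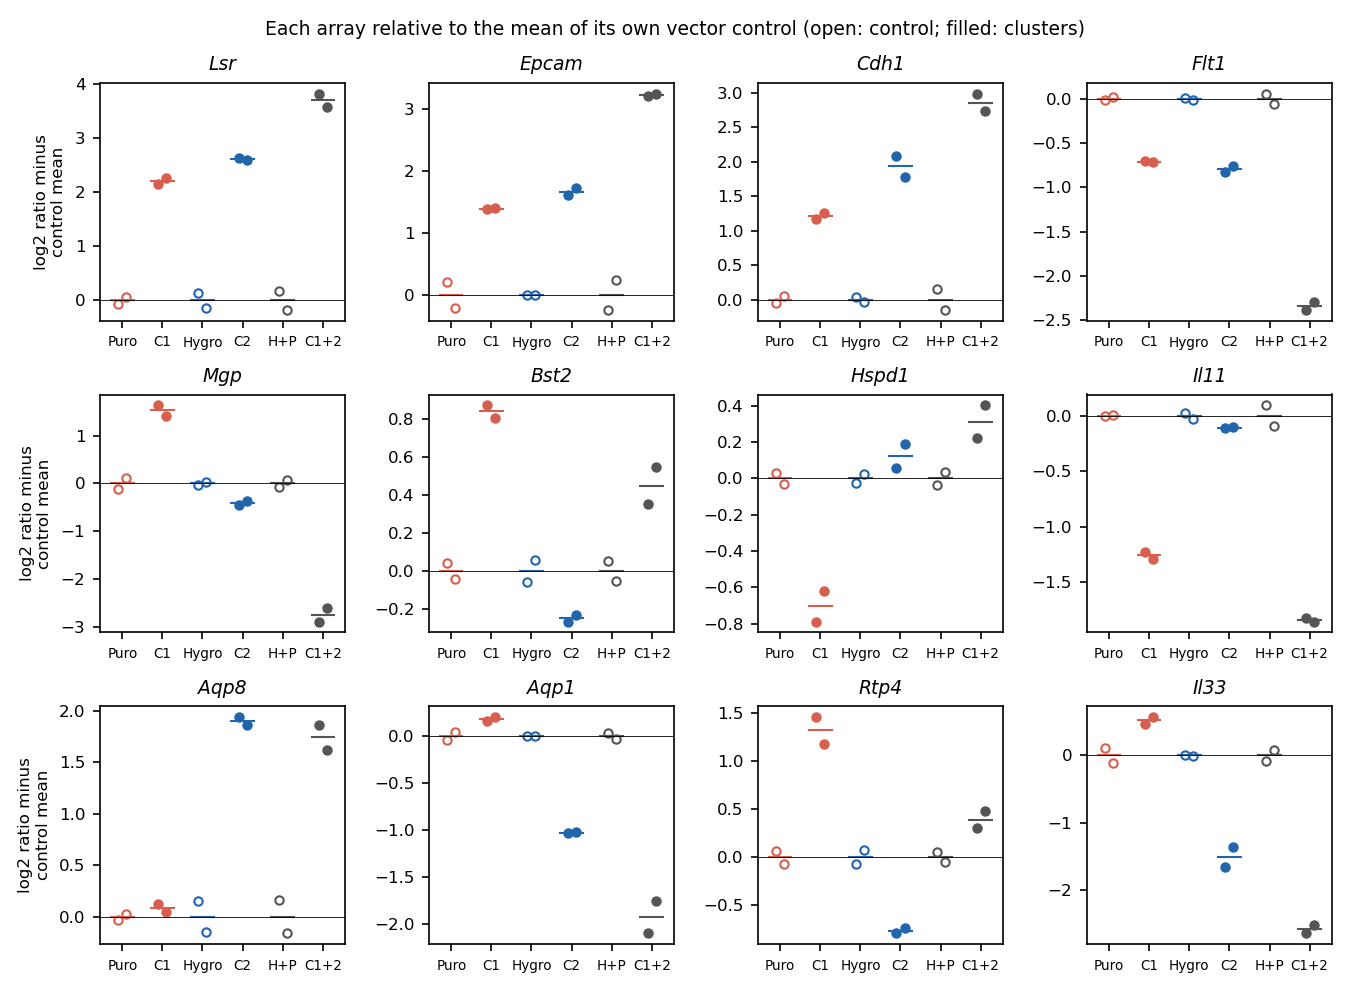
Each panel is a gene and each point an array: the log2 ratio of sample to reference minus the mean of the pair's own vector control (y axis), for Cluster 1 (C1), Cluster 2 (C2) and Clusters 1+2 (C1+2) with their controls Puro, Hygro and Hygro plus Puro (H+P); short lines are means of 2 arrays. Lsr, Epcam and Cdh1 rise and Flt1 falls in all 3 pairs, Mgp, Bst2 and Rtp4 rise with Cluster 1 and not with Cluster 2, and Aqp8 rises and Aqp1 falls with Cluster 2.

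Promoters of 3 of these shared genes and of Crb3, a gene specifically higher with Cluster 2, are shown because the repressors at the centre of the miR-200 pathway bind E-boxes. The 4 were chosen because they hold the motif; the promoter of Cgnl1, another shared gene, holds it 0 times and is not printed. The sequences are the 250 bases before the gene start from RefSeq (GRCm38.p6), 5′ to 3′ on the gene's strand, with each CAGGTG, or CACCTG where it lies on the other strand, in capitals.
Lsr: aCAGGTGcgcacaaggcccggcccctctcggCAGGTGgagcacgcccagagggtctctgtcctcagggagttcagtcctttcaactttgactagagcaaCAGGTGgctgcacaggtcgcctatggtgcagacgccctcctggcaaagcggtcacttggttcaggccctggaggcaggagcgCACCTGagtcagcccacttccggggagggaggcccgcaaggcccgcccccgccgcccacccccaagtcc
Epcam: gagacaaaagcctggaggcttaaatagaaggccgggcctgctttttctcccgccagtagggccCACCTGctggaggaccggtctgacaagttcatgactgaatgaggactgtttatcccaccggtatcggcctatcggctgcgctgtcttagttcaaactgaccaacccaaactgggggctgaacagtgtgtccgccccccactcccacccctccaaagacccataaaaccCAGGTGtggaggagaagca
Krt7: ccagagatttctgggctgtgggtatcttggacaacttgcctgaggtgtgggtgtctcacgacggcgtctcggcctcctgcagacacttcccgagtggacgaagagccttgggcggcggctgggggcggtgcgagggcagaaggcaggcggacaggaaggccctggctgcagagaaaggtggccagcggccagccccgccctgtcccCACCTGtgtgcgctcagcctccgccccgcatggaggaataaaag
Crb3: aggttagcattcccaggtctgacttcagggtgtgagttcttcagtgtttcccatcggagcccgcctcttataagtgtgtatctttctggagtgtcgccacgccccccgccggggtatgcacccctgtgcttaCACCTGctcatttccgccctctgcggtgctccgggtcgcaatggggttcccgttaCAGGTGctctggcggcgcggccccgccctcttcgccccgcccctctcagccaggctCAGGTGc
They lie at chr7:30973470-30973719 on the minus strand (Lsr), chr17:87635729-87635978 on the plus strand (Epcam), chr15:101412153-101412402 on the plus strand (Krt7) and chr17:57061951-57062200 on the plus strand (Crb3, the first of 2 starts). The windows hold 4 matches in Lsr, 2 in Epcam, 1 in Krt7 and 3 in Crb3. Of the 124 shared higher genes with a promoter in the table, 42 (33.9%) held the motif, against 2333 of 12237 tested genes with a promoter (19.1%). The share was 31.0% of 29 Cluster 2-specific higher genes and 18.2% of 159 Cluster 1-specific higher genes. A match is a description of the letters and not a binding site.

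Falls shared by the clusters were smaller. Flt1, a VEGF receptor and reported miR-200 target, fell by 0.71 (SE 0.07) with Cluster 1 and by 0.79 (SE 0.07) with Cluster 2. Its log2 ratios were 0.04 and 0.08 in Puro, -0.64 and -0.66 with Cluster 1, 1.01 and 0.99 in Hygro, and 0.18 and 0.25 with Cluster 2. The groups did not overlap in either pair. The Flt1 difference was not called, but it ran from -0.348 to 0.574 over the alternative settings and was called in at least 1 of them. Casp1, the inflammatory caspase, fell by 0.58 and 0.79, and Vcam1, an adhesion molecule for leukocytes, by 0.53 and 1.06, with Cluster 1 first. The difference of Vcam1 (0.53, adjusted p = 0.0992, limma) was called with the replicate block (0.0352). Phex, a peptidase, fell by 0.85 and 0.51, the phosphatase Ppm1l by 0.58 and 0.54, and Cdc42ep3, an effector of the GTPase Cdc42, by 0.43 and 0.49. The differences of Phex and Ppm1l were not called, but each was called in at least 1 alternative setting. They ran from -0.792 to -0.097 (Phex) and from -0.625 to 0.072 (Ppm1l) over these settings. Mmp3, the matrix protease stromelysin, fell more with Cluster 1 (-1.74, SE 0.10) than with Cluster 2 (-1.11, SE 0.10). Its difference of -0.63 (adjusted p = 0.035, limma) was not called with the replicate block (0.0544) or on leaving out any of 6 of the 8 arrays, and was 0.01 against the other Puro control.

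The named genes specifically higher with Cluster 2 included a water channel, a polarity protein and a laminin chain. Aqp8, a water channel of epithelia, was well above background in at least 1 array of every group. Its log2 ratios were -0.02 and 0.04 in Puro and 0.13 and 0.05 with Cluster 1, against 0.27 and -0.04 in Hygro and 2.06 and 1.97 with Cluster 2. The Cluster 2 rise was 1.90 (SE 0.12), the Cluster 1 change 0.08 (SE 0.12) and the difference -1.82 (SE 0.17, adjusted p = 0.000162, limma). It was called under all 22 alternatives. Kctd12b, a potassium channel domain protein, rose by 2.75 with Cluster 2 against a change of 0.35, a difference of -2.40 (SE 0.21, adjusted p = 0.00013, limma). Its ratios were -0.15 and -0.17 in Puro, 0.20 and 0.17 with Cluster 1, -1.55 and -1.33 in Hygro and 1.53 and 1.07 with Cluster 2. Its call was lost with processed signals, where the value was -2.69.

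Several of these genes were not well above background on any array of at least 1 group, so a fold is a lower bound and the size of the difference is not known. A bound sets the bright group's mean against the dimmest signal that was well above background. Crb3, an apical polarity protein, was at least 2.94-fold higher with Cluster 2 than in Hygro, and was not called in the Cluster 1 effect (adjusted p = 0.531, limma). Macc1, a regulator of the Met receptor gene, was at least 2.82-fold higher with Cluster 2, and Lamb3, a chain of the basement membrane protein laminin-332, at least 2.26-fold. C130073F10Rik was at least 2.55-fold higher. Serpinb5, the serine protease inhibitor maspin, was at least 5.74-fold higher with Cluster 2 and at least 2.46-fold with Cluster 1. Its difference (adjusted p = 0.00356, limma) turned sign, to 1.01, with processed signals. Hs3st1, a heparan sulfate sulfotransferase, was measured in the Cluster 2 pair, where it went from -0.35 and -0.11 to 1.98 and 1.91, a rise of 2.18 (SE 0.11), and was not well above background with Cluster 1. The calls of Crb3, Macc1 and Hs3st1 were lost with processed signals, at differences of -2.84, -2.45 and -2.46. Jag1, a Notch ligand and reported miR-200 target, rose by 1.06 with Cluster 2 and was not well above background in either group of the Cluster 1 pair. Its call in the difference was lost with processed signals and in the deposited matrix.

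A few desmosome and adhesion genes were also called with the Cluster 2 change above the Cluster 1 change. Dsp, the desmosome plaque protein, had ratios of -0.04 and -0.06 in Puro, 0.12 and 0.36 with Cluster 1, -0.50 and -0.61 in Hygro and 0.90 and 0.74 with Cluster 2. It rose by 1.37 with Cluster 2 against a change of 0.29 with Cluster 1, a difference of -1.08 (SE 0.14, adjusted p = 0.0014, limma), which was lost with processed signals (-1.39) and with scaled spread (-0.66). Mpzl2, an epithelial adhesion protein, rose in both, by 1.23 and 2.56, with a difference of -1.33 (SE 0.16, adjusted p = 0.00105, limma). The call of Mpzl2 was lost with processed signals, with scaled spread and in the deposited matrix, and its difference ran from -1.66 to -0.44 over the alternatives. Its ratios were -1.07 on both Puro arrays, 0.31 and 0.01 with Cluster 1, -2.82 and -2.57 in Hygro and -0.12 and -0.16 with Cluster 2. Pkp1, a plakophilin, was called in the difference (-0.75) and lost without any of 4 arrays, and Spint2, an inhibitor of membrane serine proteases, (-0.54) without any of 5; with processed signals Spint2 was 0.52.

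Genes lower with Cluster 2 included Aqp1, a water channel of other tissues than Aqp8. Its ratios were -0.71 and -0.63 in Puro, -0.51 and -0.47 with Cluster 1, -1.41 on both Hygro arrays and -2.45 and -2.44 with Cluster 2. The Cluster 2 fall was 1.03 (SE 0.10) and the difference 1.21 (SE 0.14, adjusted p = 0.00075, limma), lost with scaled spread (0.92). Lgi2, a secreted leucine-rich protein, fell by 1.20 with Cluster 2, from -0.57 on both Hygro arrays to -1.74 and -1.81, and was not well above background with Cluster 1. Its call in the difference was lost with processed signals and in the deposited matrix. Phactr1, a regulator of actin, fell by 0.70, and Synpo2, an actin-binding protein, by 0.68. The call in the difference of Phactr1 was lost against the other Puro control and with probes averaged. That of Synpo2 was lost without Hygro repeat B (0.80), with processed signals, with scaled spread, from the 8 arrays alone and in the deposited matrix. Prkcb, a protein kinase C, fell by 0.67 with Cluster 2, but its difference turned to -0.21 with processed signals. Selenbp1, a selenium-binding protein, fell by 0.91, and its difference of 1.27 turned to -0.39 against the other Puro control. Notch1, a reported miR-200 target, fell by 0.65 with Cluster 2, and its difference of 0.46 (adjusted p = 0.0478, limma) was lost without any of 7 arrays. Pdgfra, a mesenchymal growth factor receptor, fell by 0.60, and its difference of 0.70 was lost without any of 3 arrays.

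The named genes specifically higher with Cluster 1 included matrix, interferon and antigen presentation genes. Mgp, a matrix protein that inhibits calcification, had ratios of -0.39 and -0.18 in Puro and 1.35 and 1.13 with Cluster 1, against -0.21 and -0.15 in Hygro and -0.62 and -0.55 with Cluster 2. It rose by 1.53 (SE 0.11) with Cluster 1, with a Cluster 2 change of -0.41 (adjusted p = 0.0666, limma). The difference was 1.94 (SE 0.15, adjusted p = 5.32e-05, limma) and was called under all 22 alternatives, but it was 0.61 (adjusted p = 0.0494) against the other Puro control. Aldoc, a glycolytic aldolase, went from -1.32 and -1.27 to 0.12 and -0.14 with Cluster 1, and from -2.06 and -1.96 to -2.45 and -2.21 with Cluster 2. Its difference of 1.60 (SE 0.20) was not called against the other Puro control (0.52). Lama4, a laminin chain, rose by 0.68 with Cluster 1, with a difference of 1.15 that was 1.80 against the other Puro control and was lost with processed signals (1.30) and with probes averaged (0.64).

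Interferon-stimulated genes had the most calls in the difference of the 23 lists examined. Of 39 interferon-stimulated genes tested, 17 were called in the difference, all with the Cluster 1 change above the Cluster 2 change, where 1.74% of all genes were; the list's median difference was 0.59 against 0.003 for all genes. In the Cluster 1 effect 17 rose and 0 fell, and in the Cluster 2 effect 1 rose and 9 fell. Among all genes 4.89% rose with Cluster 1 and 1.05% fell with Cluster 2. The 9 falls in the Cluster 2 effect were 4 with processed signals or the sample channel alone, 1 with scaled spread, 3 with outlier spots kept, and 5 with median centring, where 3 rose. Under processed signals, median centring, scaled spread and the sample channel alone, 10, 12, 13 and 9 were called in the difference, again none in the other direction, and with outlier spots kept 3 were called. Parp14, an antiviral ADP-ribosyltransferase, had ratios of -0.74 and -0.80 in Puro and 0.70 and 0.36 with Cluster 1, against -1.07 and -0.92 in Hygro and -1.20 on both Cluster 2 arrays. Its difference was 1.51 (SE 0.15, adjusted p = 0.000247, limma). Bst2, which tethers budding viruses to the cell, went from -1.29 and -1.37 to -0.46 and -0.52 with Cluster 1, and from -0.78 and -0.67 to -0.99 and -0.96 with Cluster 2. Its difference of 1.09 (SE 0.12, adjusted p = 0.000716, limma) was called under all 22 alternatives. The transcription factors of the pathway moved too, Irf9 by 0.75 and Irf1 by 0.67 with Cluster 1. The Cluster 2 changes of these factors, -0.36 and 0.14, were not called.

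The interferon counts were lower with another Puro control. Against the Puro control of the CDH1 experiment, which carries the same vector and dye on another slide, 8 members were called above (1.74% of all genes) and 2 below (1.59%), and the list's median difference was 0.33. With that control Cluster 1 raised 4 members (4.79% of all genes) and lowered 3 (3.88%). The calls of Rtp4, Ifi27, Parp14, Bst2 and Oasl2 remained. The leukocyte markers given above did not pass the threshold, and their part in the result was not tested.

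Promoters of a pair of interferon genes are shown for the core letters of the interferon-stimulated response element, read on both strands, in capitals, with CAGGTG in capitals too.
Bst2: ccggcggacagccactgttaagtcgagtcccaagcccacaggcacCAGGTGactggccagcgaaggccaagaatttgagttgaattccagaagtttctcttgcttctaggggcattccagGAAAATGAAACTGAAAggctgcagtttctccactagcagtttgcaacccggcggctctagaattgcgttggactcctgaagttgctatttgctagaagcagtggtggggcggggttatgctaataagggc
Ifit1: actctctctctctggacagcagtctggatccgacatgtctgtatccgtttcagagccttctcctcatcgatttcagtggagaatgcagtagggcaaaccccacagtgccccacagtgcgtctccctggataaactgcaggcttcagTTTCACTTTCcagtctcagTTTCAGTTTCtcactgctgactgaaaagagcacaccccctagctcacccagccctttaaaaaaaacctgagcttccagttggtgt
They lie at chr8:71537473-71537722 on the minus strand (Bst2) and chr19:34640639-34640888 on the plus strand (Ifit1) in GRCm38.p6. The response element was found 2 times in each, overlapping in Bst2. The promoter of Oasl2, another named interferon gene, holds it 0 times and is not printed, so the pair does not stand for the list. Of 29 interferon-stimulated genes tested with a promoter in the table, 14 (48.3%) held it, against 388 of 12237 tested genes (3.17%). It was in 5 of 38 Cluster 2-specific lower genes (13.2%), among them Ifit1 and the GTPase Gbp7, and in 10 of 159 Cluster 1-specific higher genes (6.29%).

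Antigen presentation genes rose with Cluster 1. Of 12 tested, 7 rose and 0 fell with Cluster 1, where 4.89% of all genes rose and 3.42% fell. By limma 0 were called with Cluster 2 (1 at an unadjusted p under 0.05). In the difference 4 were called, where 2.68% of all genes were. With Cluster 2, 1 was called higher with the replicate block, 1 with the filter on all 8 arrays and 2 with median centring, where 2 were called in the difference; with outlier spots kept 1 was. Psmb9, a catalytic subunit of the immunoproteasome, went from -1.16 on both Puro arrays to 0.05 and -0.23 with Cluster 1, and from -1.96 and -1.81 to -2.10 and -1.95 with Cluster 2. It rose by 1.07 (SE 0.12), with a difference of 1.21 (SE 0.16, adjusted p = 0.00203, limma). The class I heavy chain genes H2-T23 and H2-K1 rose by 0.68 and 0.59 with Cluster 1, with Cluster 2 changes of -0.01 and -0.03; the difference of H2-K1 (0.62) was lost without any of 4 arrays. These MHC genes have close relatives, so their probes may share signal. None of the 12 was called in the difference against the other Puro control, where 0 rose and 1 fell with Cluster 1.

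The named genes lower with Cluster 1 included secreted factors, a chaperone and Id genes. Il11, a cytokine of the interleukin-6 family, had ratios of 1.77 and 1.78 in Puro and 0.55 and 0.48 with Cluster 1, against 2.51 and 2.46 in Hygro and 2.37 and 2.38 with Cluster 2. It fell by 1.26 (SE 0.08), with a difference of -1.15 (SE 0.11, adjusted p = 0.000176, limma) that was -0.17 and not called against the other Puro control. The proliferin genes Prl2c3 and Prl2c5 fell by 1.48 and 1.56; they are near-identical copies, so which of them was measured is uncertain, and their differences were not called against the other Puro control (-0.53 and -0.36). Hspd1, the mitochondrial chaperonin, went from 0.28 and 0.21 to -0.54 and -0.37 with Cluster 1, and from 0.31 and 0.36 to 0.39 and 0.52 with Cluster 2. Its difference of -0.83 (SE 0.13, adjusted p = 0.00637, limma) was -0.70 and called against the other Puro control. Id3, an inhibitor of basic helix-loop-helix factors, fell by 0.72 with a difference of -0.66, which was -0.35 and not called against the other Puro control. Id1, of the same family, fell by 0.61, and its difference of -0.76 was lost without any of 5 arrays. Pakap, an anchor protein of protein kinase A, fell by 1.10 with a difference of -0.87; with its probes averaged it was -0.16. The call of Apcdd1, an inhibitor of Wnt signalling (-0.90), was lost without Cluster 1 repeat A (-0.83). It was also lost with processed signals, with offset 10, with scaled spread, with probes averaged and in the deposited matrix.

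Opposite changes were found in 28 genes, 27 of them higher with Cluster 1 and lower with Cluster 2. Il33, an alarmin cytokine of barrier tissues, had ratios of -0.53 and -0.76 in Puro and -0.17 and -0.07 with Cluster 1, against -1.29 and -1.31 in Hygro and -2.96 and -2.67 with Cluster 2. It rose by 0.52 (SE 0.12) and fell by 1.51 (SE 0.12), a difference of 2.04 (SE 0.16, adjusted p = 6.11e-05, limma) that was called under all 22 alternatives and was 1.68 against the other Puro control. Rtp4, an interferon-induced chaperone of receptors, went from -1.91 and -2.05 to -0.51 and -0.79 with Cluster 1, and from -0.95 and -0.81 to -1.67 and -1.62 with Cluster 2. Its difference was 2.09 (SE 0.16, adjusted p = 4.74e-05, limma), and 0.96 against the other Puro control. Ifi27, an interferon-induced membrane protein, rose by 1.08 and fell by 0.61. Tnfrsf19, a receptor of the TNF family, rose by 0.64 and fell by 0.64, and its difference of 1.28 was 1.93 against the other Puro control.

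Cebpd, a transcription factor of the acute phase response, rose by 0.47 with Cluster 1 and fell by 0.99 with Cluster 2. Its ratios were -0.84 and -0.68 in Puro, -0.21 and -0.36 with Cluster 1, -2.74 and -2.86 in Hygro and -3.82 and -3.76 with Cluster 2. The difference of 1.46 was 0.31 and not called against the other Puro control. Gstm1, a glutathione transferase with close relatives, rose by 0.56 and fell by 0.41, and its difference of 0.96 was 0.09 with that control. Apol9b and Selenbp2 turned, from 1.44 to -0.10 and from 1.29 to -0.46.

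Members of the epithelial lists rose with each cluster. Among all genes tested, 4.89% rose with Cluster 1 and 1.75% with Cluster 2. In the difference 1.74% of all genes were called above and 0.945% below. Of 24 adherens and tight junction genes, 9 rose with Cluster 1 and 6 with Cluster 2, none fell, 5 rose in both, and 1 each was called above and below in the difference. Of 22 polarity and epithelial surface genes, 7 and 11 rose, none fell and 7 rose in both; 1 was above and 3 were below. Of 20 keratin and desmosome genes, 7 and 9 rose and 6 rose in both, among them Krt8 (0.81 and 0.65), Krt18 (1.26 and 1.04) and Pkp3 (0.77 and 0.59). In that list 4 were called in the difference, all with Cluster 2 above; with the spread of the arrays scaled, 3 were called and all with Cluster 1 above, so the direction depends on that scaling. Of 12 hemidesmosome and laminin-332 genes, 4 and 4 rose, 3 in both, including Itgb4, an integrin chain of hemidesmosomes (0.94 and 1.00), and Col7a1, the anchoring fibril collagen (1.05 and 1.45). Against the other Puro control 2 of these 12 rose and 2 fell with Cluster 1, where 4.79% and 3.88% of all genes did. In the difference 0 were then above and 4 below (1.74% and 1.59% of all genes). With that control 9 junction, 8 polarity and surface, and 9 keratin and desmosome genes rose with Cluster 1. In these lists 0, 0 and 1 fell.

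Sterol synthesis genes rose with both clusters. Of 25 genes, 17 rose with Cluster 1 and 8 with Cluster 2, none fell, where 4.89% and 1.75% of all genes rose, and 7 rose in both, among them Idi1 (0.58 and 0.64) and Hmgcs1 (0.41 and 0.45), enzymes of the cholesterol pathway. Cluster 2 calls in this list numbered 1 with processed signals and 16 with median centring. With Cluster 1 set against the other Puro control, 9 rose, where 4.79% of all genes did. Tm7sf2, a sterol reductase, set the clusters apart: it went from 0.20 and 0.30 to 1.18 and 1.24 with Cluster 1, and from -1.22 and -1.33 to -1.36 and -1.25 with Cluster 2. Its difference of 0.99 (SE 0.13, adjusted p = 0.00195, limma) was 0.95 against the other Puro control. The call of Pmvk (0.46), a mevalonate pathway kinase, was lost with the replicate block (adjusted p = 0.0538, limma). Scd1 and Scd2, the desaturases that make monounsaturated fatty acids, rose by 0.99 and 0.80 with Cluster 1, with differences of 0.91 and 0.69 that were -0.16 and 0.07 against the other Puro control.

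Reported targets of miR-200 fell in part. Of 46 tested, 7 fell and 2 rose with Cluster 1, 5 fell and 1 rose with Cluster 2, and Zeb2 and Flt1 fell with both. Among all genes, 3.42% fell and 4.89% rose with Cluster 1, and 1.05% fell and 1.75% rose with Cluster 2. Ppm1f, a phosphatase, fell by 0.63 and E2f3, a cell cycle factor, by 0.42 with Cluster 1, while Reck, an inhibitor of matrix proteases, fell by 0.55 with Cluster 2. Only Jag1 and Notch1 were called in the difference, where 2.68% of all genes were. The list's median difference was 0.07. Of 10 repressors of Cdh1, 0 were called in the difference by limma (3 at an unadjusted p under 0.05, all above), and Zeb2 alone was called in the effects. In the difference 1 was called above with the sample channel alone, with the filter on all 8 arrays and with probes averaged. Sec23a, the COPII coat subunit and reported target, changed by -0.03 and -0.51 and was called in neither effect; its difference of 0.49 was called with the replicate block (adjusted p = 0.0446, limma). Of 45 DNA replication and mitosis genes, 7 fell with Cluster 1, where 3.42% of all genes did, among them the helicase subunit Mcm5 (-0.49) and the cyclin Ccne2 (-0.56), and 0 were called with Cluster 2 by limma (2 at an unadjusted p under 0.05). In the difference 0 were called (2 above and 9 below at an unadjusted p under 0.05), and 6 were called below with median centring, so a difference between the clusters was not shown. With Cluster 1 set against the other Puro control, 1 of the 45 fell and 1 rose, and the list's median change was 0.04 against -0.14 with its own control.

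Of 27 cytokine and acute phase genes, 6 were called above and 2 below in the difference, where 1.74% and 0.945% of all genes were. C3, the central complement protein, rose in both, from -1.15 and -1.01 to 0.68 and 0.54 with Cluster 1 and from -2.45 and -2.48 to -1.71 and -1.67 with Cluster 2. The rises were 1.69 and 0.78 (SE 0.08 each) and the difference was 0.91 (SE 0.11, adjusted p = 0.00105, limma). Against the other Puro control it was -0.66 (adjusted p = 0.00596). With that control 1 member of the list was called above and 6 below, where 1.74% and 1.59% of all genes were. Trib3, a pseudokinase of the amino acid stress response, rose by 0.69 with Cluster 1 and was at -0.001 with Cluster 2, and its difference of 0.69 was -0.07 with that control.

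**Figure D3:**
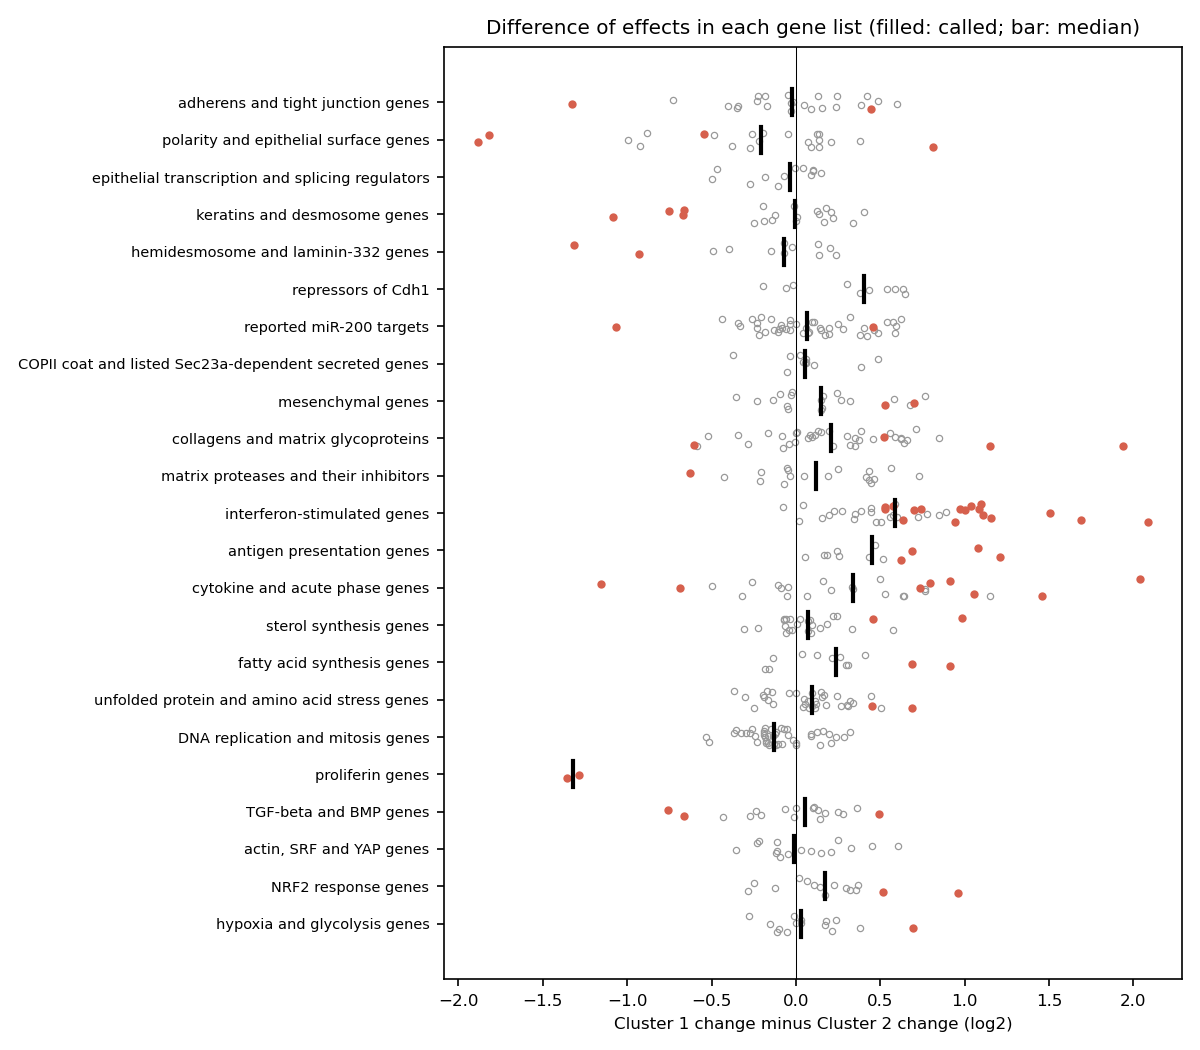
Each row is a gene list and each point a member, placed at the Cluster 1 change minus the Cluster 2 change (x axis, log2); filled points were called and the bar is the median of the list. The interferon list has 17 filled points, all right of 0, while the filled keratin, desmosome and laminin-332 genes lie left of 0, where with the spread of the arrays scaled the 3 keratin and desmosome calls lie right of it.

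Cells carrying both clusters give a readout on other arrays. These 4 arrays (Clusters 1+2 against Hygro vec + Puro vec) took no part in the contrast, but they share slides and dye with the Cluster 2 pair. They also entered the filter and the estimate of spread behind the calls, so the readout is not fully independent of the classes. There 2285 genes were higher (12.1% of those tested) and 2420 lower (12.8%). Of the 182 shared higher genes, 172 were higher and 0 lower, and all 39 shared lower genes were lower. Of the 46 Cluster 2-specific higher genes, 43 were higher and 0 lower, and of the 48 lower ones 45 were lower and 0 higher. Genes specific to Cluster 1 were divided: of 210 higher genes 48 were higher and 74 lower, and of 109 lower genes 47 were higher and 23 lower. Of the 28 opposite genes 2 were higher and 17 lower, Il33 falling by 2.58.

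Single genes show the same division. Mgp, higher with Cluster 1, fell by 2.75 with both clusters, and Lama4 fell by 1.50. Parp14 rose by 0.92, Bst2 by 0.45 and Tm7sf2 by 0.98. Il11 fell by 1.84. Hspd1, lower with Cluster 1, rose by 0.31. Kctd12b rose by 4.18 and Mpzl2 by 4.16. Krt7, the largest rise with either cluster, rose by 2.11 with both.

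**Figure D4:**
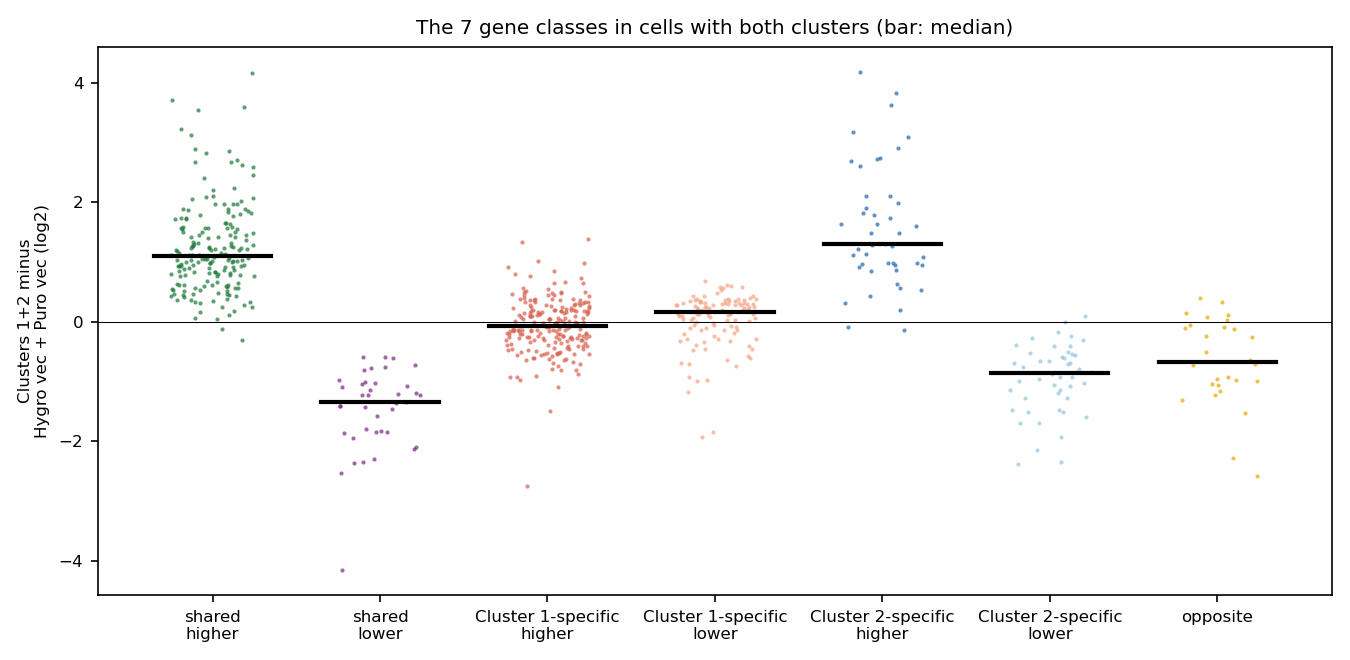
Each point is a gene of a class (x axis), placed at its change in Clusters 1+2 cells against Hygro vec + Puro vec (y axis, log2); bars are medians. Shared and Cluster 2-specific genes lie on the side of their class, with medians of 1.10, -1.34, 1.30 and -0.86, while both Cluster 1-specific classes spread around 0 with medians of -0.08 and 0.16.

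The series holds a further Puro vector control, hybridised for the CDH1 experiment, which the rule of the comparison does not use. The Puro controls differed from each other in 1911 genes. With that control in place of Cluster 1's own, 627 genes were called in the difference, and 164 of the 505 main calls (32.5%) were called again with the same sign, while 11 were called with the opposite sign. The calls kept were 38 of 46 Cluster 2-specific higher genes (82.6%) and 16 of 48 lower ones (33.3%). For Cluster 1-specific genes they were 59 of 210 higher (28.1%) and 21 of 109 lower ones (19.3%). The swap changes only the Cluster 1 side of the difference, and no other Hygro control was tried. The shares therefore do not compare how firm the classes are. Of the opposite genes 14 of 28 were kept.

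**Figure D5:**
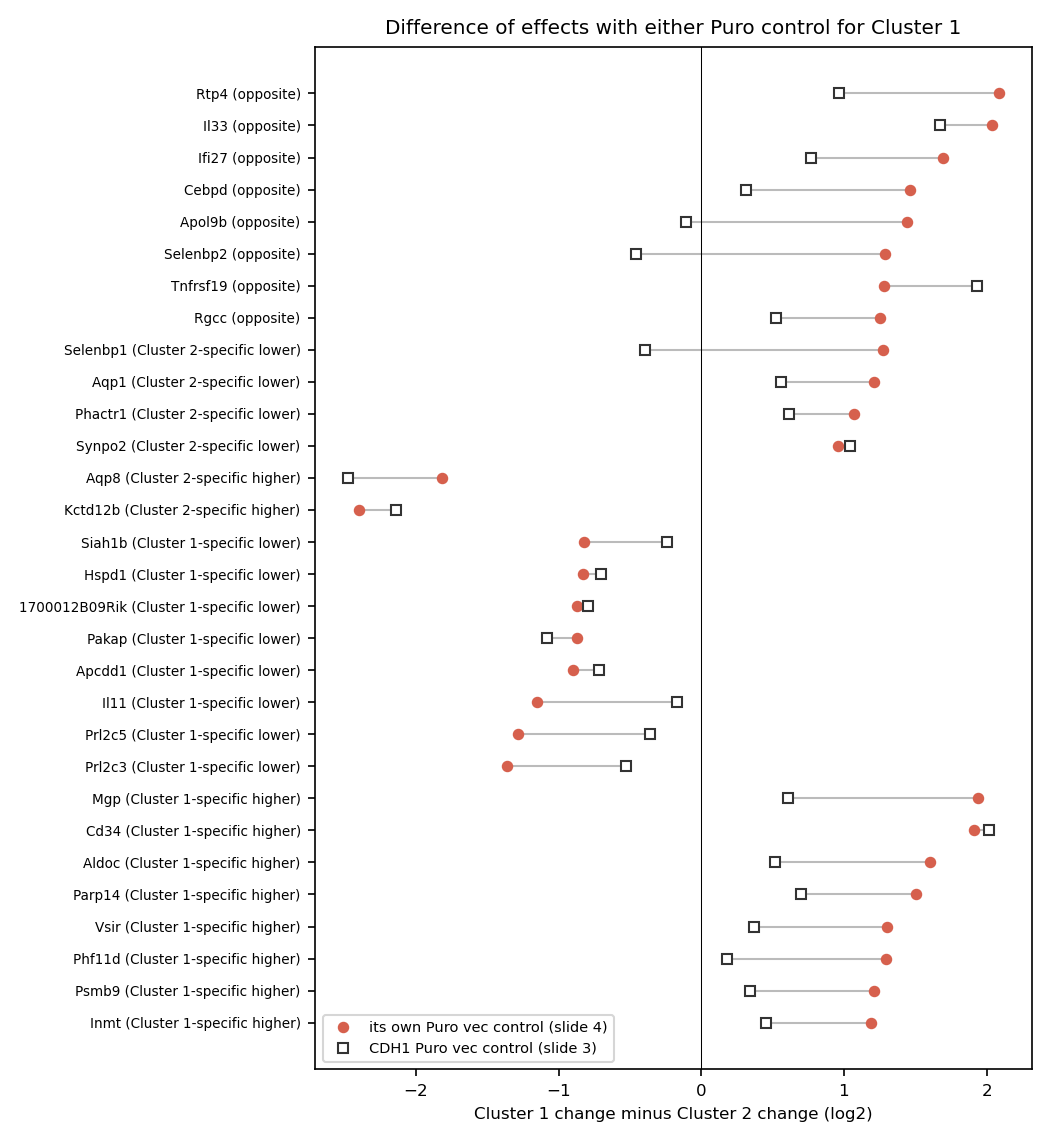
Each row is a named gene measured in both pairs, with its class in brackets; points show the difference of effects (x axis, log2) with Cluster 1's own Puro control (filled) and with the CDH1 Puro control (open squares). Aqp8, Kctd12b, Cd34, Hspd1, Il33 and Tnfrsf19 stay far from 0 with either control, while Apol9b, Selenbp1 and Selenbp2 cross 0 and Il11 and Phf11d move close to it.

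Across all alternatives tried, 6 of the 505 genes were called in the difference with the same sign in each of the 22: Il33, Mgp, Aqp8, Bst2, Rdm1 and Fhl2, the last pair named after their values were seen. Rdm1, a DNA repair gene, differed by 1.26 and Fhl2, a LIM domain cofactor, by -0.83. Apart from the alternative that kept outlier spots, 22 genes were called in each of the other 21, among them 12 Cluster 1-specific, 2 Cluster 2-specific and 6 opposite genes. Cd34, a surface sialomucin, had a large difference (1.91, SE 0.35, adjusted p = 0.0123, limma) and was called with the other Puro control (2.02), but the call was lost without Cluster 1 repeat A, Puro repeat B or Hygro repeat B (1.67 to 1.92). Its ratios were -2.62 and -2.74 in Puro and -1.15 and -1.13 with Cluster 1.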

How the data were processed

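The scanner output that was deposited gives, per the file headers, spot mean and local background intensity in red and green, processed intensity values, and a log10 ratio of red over green, from Agilent Feature Extraction 9.5.3.1 on design 014868 (probe positions on build mm7). The deposited series matrix holds a linear ratio per spot, which matched processed sample over reference within 8.06e-08 in log10. Its column medians ran from 0.9032 to 1.175, and its values were used as they stand.

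Marked outlier spots (368 to 1367 per array of the 8, controls included) were left out. Background was corrected with normexp (offset 50) and each array normalised by loess in limma 3.58.1 (R 4.3.3), with controls at weight 0. A probe was kept if well above background on both arrays of at least 1 group, and the brightest stood for its gene (18900 genes, 15392 with a current symbol, named through RefSeq). One limma model with 8 group means was fitted over 16 arrays, so that groups of 2 share an estimate of spread, and p-values were Benjamini-Hochberg adjusted over all genes. The test was two-sided. It was tried on simulated data with independent noise on each array, which leaves out the correlation between repeats on a slide given below.

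Members and lists were chosen with earlier results of these data known. Genes were named by rule: the 8 largest differences in each cluster-specific class with the sign of the effect in both repeats and among opposite genes, the 8 largest shared changes each way, up to 6 called members of each list, and 8 fixed genes, all with a symbol and values on the 8 arrays. Other list members are given as examples and were picked after their values were seen. Repeat letters follow slides in the Cy3 groups (their A minus B deviations correlated at 0.275 between Hygro vec and Cluster 2), not in the Cluster 1 pair (-0.014). Vim lacked 1 array. A few genes that the rule or lists take in are not reported here.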

Additional observations from a re-analysis of the deposited data

Results flagged for a closer look

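The difference between the 2 pairs' effects was itself tested, and 505 genes passed the threshold; 28 of them were also called in opposite directions in the effects. Among these, the largest differences of effects (Cluster 1 change minus Cluster 2 change, log2) were those of Rtp4 (2.09), Il33 (2.04), Ifi27 (1.69), Cebpd (1.46), Apol9b (1.44), Selenbp2 (1.29), Tnfrsf19 (1.28) and Rgcc (1.26). In each the Cluster 1 arrays lay above their Puro control and the Cluster 2 arrays below Hygro vec, in both repeats. Vector, dye and slide differ between the pairs, so their part cannot be told apart from that of the cluster.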

How the results depend on the processing

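Of 505 differences, 1568 Cluster 1 calls, 527 Cluster 2 calls and 221 same-way calls, the replicate block gave 672, 1633, 621 and 225, with 444 of the 505 kept. It moved the call of 6 named genes: Cdh1, Vcam1 and Sec23a gained it, and Mmp3, Pmvk (0.0538) and Tgfb3 (0.0528) lost it. Repeat letters mark the slide in the Cy3 pair and do not pair the Cluster 1 arrays. Difference calls were 259 with processed signals, 29 with outlier spots kept, 1008 with median centring, 308 with no filter, 877 with the filter on all 8 arrays, 204 from the 8 arrays alone and 258 from the deposited matrix, and 195 to 643 on leaving out 1 array. Cluster 1 calls were 195 with outlier spots kept and 678 to 1437 with 1 array left out. Cluster 2 calls were, in the order processed signals, offset 10, outlier spots kept, median centring, scaled spread, sample channel, 8 arrays alone and deposited matrix, 190, 263, 78, 2283, 75, 209, 349 and 175, and 235 to 800 with 1 array left out. Same-way calls in that order were 112, 141, 20, 388, 45, 106, 141 and 104, and 120 to 159. Differences that turned sign and were called before or after, with processed signals and alike in the deposited matrix, were Prkcb (-0.209), Serpinb5 (1.007) and Spint2 (0.516); with scaled spread Lsr (1.184), Perp (1.081) and Krt7 (1.531); and with the CDH1 Puro control Selenbp1 (-0.391), Lsr (0.952), Perp (1.216), Cgnl1 (-0.773), Apol9b (-0.104), Selenbp2 (-0.46), Col8a1 (-0.021), Mmp3 (0.015), C3 (-0.662), Scd1 (-0.156) and Trib3 (-0.067). Among uncalled differences, Cdh1 turned with processed signals (0.536), scaled spread (0.232) and the deposited matrix (0.572), and Epcam with scaled spread (0.328). Other causes were not tested. Leaving out 1 array moved the split too: without Cluster 2 repeat A 42.3% of difference calls and 80.2% of Cluster 2 calls were higher, and without Hygro vec repeat A 77.3% and 36.1%. Probes at background limit what can be said of Crb3, Macc1, Serpinb5 and Lamb3 to bounds. Aquantile changed no call of the 97 named genes.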

Other observations

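Members of several further lists rose with Cluster 1, and most of them were not called in the difference. Among all genes tested, 4.89% rose and 3.42% fell with Cluster 1, and 1.75% rose and 1.05% fell with Cluster 2. In the difference 1.74% of all genes were above and 0.945% below. Against the other Puro control 4.79% rose and 3.88% fell with Cluster 1, with 1.74% above and 1.59% below in the difference. The basement membrane collagens Col4a1 and Col4a2 rose with both clusters, Col4a1 by 0.58 and 0.47 and Col4a2 by 0.39 and 0.39, with the matrix glycoprotein Thbs1 (0.82 and 1.17). Of 38 collagens and matrix glycoproteins 7 rose and 2 fell with Cluster 1, 5 rose with Cluster 2, and 3 were above and 1 below in the difference. Against the other Puro control 5 of the 38 rose and 6 fell with Cluster 1, with 2 above and 4 below in the difference. Col8a1 (0.85 and 0.33) and the laminin chain Lama5 (-0.40 and 0.21) were among these; the call of Lama5 was lost without Cluster 1 repeat A, Puro repeat B or Hygro repeat B. Of 35 unfolded protein and amino acid stress genes 9 rose with Cluster 1 and 2 with Cluster 2, among them Nupr1 (0.69 and 0.61), and 2 were above in the difference. With median centring 0 were above and 2 below. Of the 35, 4 rose and 6 fell with Cluster 1 against the other Puro control, with 0 above and 3 below in the difference. Of 15 NRF2 response genes 7 rose and 1 fell with Cluster 1, including Nqo1 (0.49), and of 16 actin, SRF and YAP genes 4 rose, including Ccn2 (0.92), and 1 with Cluster 2, Ankrd1 (0.68). Of 18 TGF-beta and BMP genes 3 rose and 3 fell with Cluster 1, the latter Id1, Id2 (-0.51) and Id3, and 3 rose with Cluster 2. In the Cluster 1 effect against the other Puro control, 5 NRF2 response genes rose and 2 fell, 2 of the actin, SRF and YAP genes rose, and 4 of the TGF-beta and BMP genes rose and 2 fell.

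In the smaller lists, Esrp2, a regulator of epithelial splicing, rose with Cluster 2 (0.79); of 12 regulators of epithelial splicing and transcription 0 were called with Cluster 1 and 2 rose with Cluster 2. Of 20 mesenchymal genes Prrx2 (0.72) and Tpm2 (0.96) rose with Cluster 1, and Tpm2 (0.43) rose and Pdgfra fell with Cluster 2. Against the other Puro control 2 of the 20 rose and 4 fell with Cluster 1, where 4.79% and 3.88% of all genes did. The median Cluster 1 change of the mesenchymal list was -0.214 with that control and 0.079 with its own. Of 12 fatty acid genes 4 rose with Cluster 1, against 1 that rose and 1 that fell with the other Puro control. Of 16 hypoxia and glycolysis genes 3 rose with Cluster 1, including Egln3 (0.64), and 1 fell; 0 rose and 4 fell in the sample channel alone, and 1 rose and 4 fell against the other Puro control. Of 12 COPII and related secreted genes only Tinagl1 (-0.38) changed, with Cluster 1. No member of that list was called lower with Cluster 1 under processed signals, offset 10, outlier spots kept, median centring or scaled spread. The same held for the sample channel alone and for probes averaged. Under processed signals, under scaled spread and against the other Puro control, 1 member was called higher with Cluster 1. Of 18 matrix proteases and inhibitors Adamts1 (0.42) rose and Mmp3 fell with Cluster 1. Vim and Igfbp4 were called in neither effect. These counts stand beside shares over all genes of 4.89% higher and 3.42% lower with Cluster 1. The shares with Cluster 2 were 1.75% higher and 1.05% lower.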
